A study of Arabidopsis thaliana with 6 samples.

Results

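The genes described here encode the proteins of the cytosolic ribosome of Arabidopsis thaliana. They are the genes whose deposited description reads 40S or 60S ribosomal protein and that had a count above 0 in at least 1 genotype. Of 31608 rows in the table, 201 met this rule, 93 of them for the small (40S) subunit and 108 for the large (60S) subunit. RNA selected for polyA tails came from siliques, the fruits that hold the developing seeds, 4 days after pollination. The mee45-1 mutant was set against the wild-type accession Col-0, with 3 libraries of each genotype, and no further allele or agent is named. The series text calls the repeats biological, while the labels mention collection in duplicate and also call the tissue seed. The nature of the mee45-1 lesion, and whether repeats came from separate plants, are not given in the sources used here, so the p-values may in part measure technical spread. Here the tissue is referred to as silique, with n = 3. The files used hold a mean per genotype computed by the authors, so no value below has a replicate SD, and the authors' p-values are the only measure of replicate error.

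The cytosolic ribosome joins a small subunit, which reads the messenger RNA, to a large subunit, which forms the peptide bonds. In Arabidopsis nearly every ribosomal protein is encoded by a small family of paralogs, and loss of single paralogs is known to give pointed leaves, altered leaf polarity or arrested embryos. Growing tissues such as young seeds and fruits need many ribosomes. The promoters of these genes are known for the site II element and the telo box, short motifs linked to expression in dividing cells.

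The upstream sequences of 4 genes are shown because the results turn on these genes, which were chosen after their values were seen. ARP2 (AT1G61580, RPL3B in the reference) was the only member to pass the authors' test and ARP1 (AT1G43170) is its paralog. RPS8A (AT5G20290) and RPL19A (AT1G02780) were the most abundant genes of the small and the large subunit. Letters run 5′ to 3′ on the strand of the gene, end at the base before its annotated start and come from the RefSeq TAIR10.1 assembly. The windows are chr1:22723153-22723367 on the minus strand for ARP2, chr1:16266303-16266552 on the plus strand for ARP1, chr5:6853107-6853298 on the minus strand for RPS8A and chr1:609535-609784 on the minus strand for RPL19A. Capitals mark matches to the site II letters, TGGGCC or TGGGCT, or to their reverse complements. In ARP2 and RPS8A the bases that belong to a neighbouring gene were left out.
ARP2: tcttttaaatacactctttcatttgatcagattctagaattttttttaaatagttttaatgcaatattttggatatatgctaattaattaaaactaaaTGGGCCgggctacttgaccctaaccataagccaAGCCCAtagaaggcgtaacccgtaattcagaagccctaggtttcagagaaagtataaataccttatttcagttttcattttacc
ARP1: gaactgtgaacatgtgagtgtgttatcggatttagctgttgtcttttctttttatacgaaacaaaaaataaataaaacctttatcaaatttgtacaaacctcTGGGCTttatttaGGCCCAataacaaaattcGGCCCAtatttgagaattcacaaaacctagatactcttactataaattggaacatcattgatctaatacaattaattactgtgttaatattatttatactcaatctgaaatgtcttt
RPS8A: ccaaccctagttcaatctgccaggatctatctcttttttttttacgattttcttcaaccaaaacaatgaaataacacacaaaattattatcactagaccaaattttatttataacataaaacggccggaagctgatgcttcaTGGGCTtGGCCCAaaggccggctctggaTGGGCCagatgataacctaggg
RPL19A: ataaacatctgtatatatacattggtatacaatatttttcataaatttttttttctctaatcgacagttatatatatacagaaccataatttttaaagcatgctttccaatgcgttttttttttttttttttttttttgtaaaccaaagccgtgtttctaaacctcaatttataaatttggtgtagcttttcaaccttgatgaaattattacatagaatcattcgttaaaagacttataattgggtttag
The ARP2 window held 2 site II matches, and those of ARP1 and RPS8A held 3 each. The RPL19A window held 0, although this gene had the highest level of all members. The telo box, AAACCCTA, stood in none of the 4 windows.

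Both motifs were more frequent in the set than in all protein-coding genes. In the 250 bases upstream of the annotated start, site II stood on either strand in 131 of the 200 members found in the reference (65.5%), against 19.2% of 27443 protein-coding genes, which include the members. The telo box stood in 40 members (20.0%), against 4.49% of all genes. Both motifs stood in 29 members, and 58 held neither. Site II was found in 62.0% of small-subunit and 68.5% of large-subunit promoters, and the telo box in 16.3% of small-subunit and 23.1% of large-subunit promoters. The 300 site II matches in members lay at a median of 58 bases upstream, with 88.7% of them within 125 bases, and those in all genes at a median of 86 bases, with 69.9% within 125 bases. The 43 telo boxes in members lay at a median of 34 bases upstream, against 99 bases in all genes. Site II matches that overlap on opposite strands were each counted. These are matches of letters and were not read as binding sites.

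**Figure D1:**
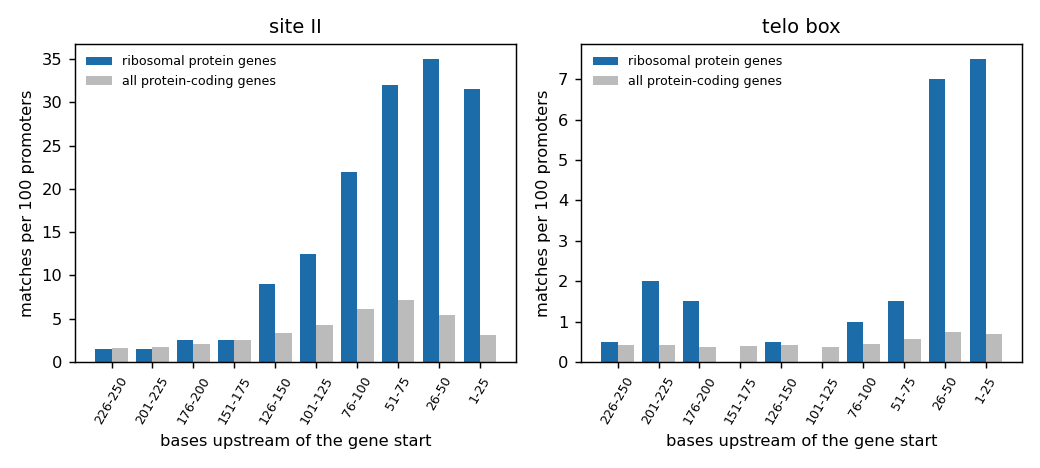
Matches per 100 promoters (vertical axis) by distance upstream of the gene start (horizontal axis, bases, far to near) for site II on the left and the telo box on the right, in ribosomal protein genes (blue) and in all protein-coding genes (grey). Within 125 bases of the start lie 88.7% of the site II matches in ribosomal protein genes and 69.9% of those in all genes.

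The label of the set held for most of its members. The deposited GO annotation names the cytosolic ribosome for 189 of the 201 genes and does not for the other 12. Of these, RPS10 (AT3G22300), RPS19 (AT5G47320) and the L2-like gene AT2G07715 are placed in the mitochondrion by the RefSeq annotation, and AT5G57060 is described as L18a-like. RPS10 stood at 29.2 FPKM in mee45 and 26.3 in Col-0 and RPS19 at 35.8 FPKM in mee45 and 36.4 in Col-0, and none of the 3 passed the authors' test. RPL30A (AT1G36240) and RPL37AB (AT3G10950) match the description but had 0 counts in both genotypes and lay just outside the rule. Just inside it, the L18 gene AT2G47570 had a mean of 0 counts in mee45 and 0.333 in Col-0. RPL13C (AT3G48960) had 0.667 counts in mee45 and 0 in Col-0, and RPS15AC (AT2G39590) had 1.67 in mee45 and 1.00 in Col-0. A change in these lowest members was not detectable at this depth. A mean count of at least 10 in both genotypes was reached by 195 members, and of at least 1000 by 152. Mean depth per library was 20530953 counts in mee45 and 20242476 in Col-0. MEE45 itself (AT4G00260) had 3 counts summed over the mee45 libraries and 62 over the Col-0 libraries (authors' adjusted p = 4.34e-06).

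The genes were abundant in the silique. On the FPKM scale, which is per gene length, the median member stood at 191 in mee45 and 180 in Col-0, against 8.47 in mee45 and 8.71 in Col-0 over all 25434 genes tested. Levels exceeded 100 FPKM for 145 members in mee45 and 142 in Col-0. The large-subunit median was 207 FPKM in mee45 and 196 in Col-0. The small-subunit median was 173 FPKM in mee45 and 170 in Col-0. RPL19A was highest of all, at 638 FPKM in mee45 and 598 in Col-0. RPS8A led the small subunit, at 613 FPKM in mee45 and 523 in Col-0.

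The next genes, ordered by their FPKM averaged over both genotypes, lay close together in level. RPL14B (AT4G27090) followed RPL19A in the large subunit, at 567 FPKM in mee45 and 555 in Col-0. RPL27C (AT4G15000), ARP1 and UBQ1 (AT3G52590), which encodes a fusion of ubiquitin to L40, stood between 513 and 521 FPKM in mee45 and between 474 and 510 FPKM in Col-0. In the small subunit RPS16C (AT5G18380), RPS2B (AT1G59359), RPS23B (AT5G02960) and UBQ5 (AT3G62250), a fusion of ubiquitin to S27a, stood between 459 and 504 FPKM in mee45 and between 428 and 486 FPKM in Col-0. None of these most abundant genes passed the authors' test.

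**Figure D2:**
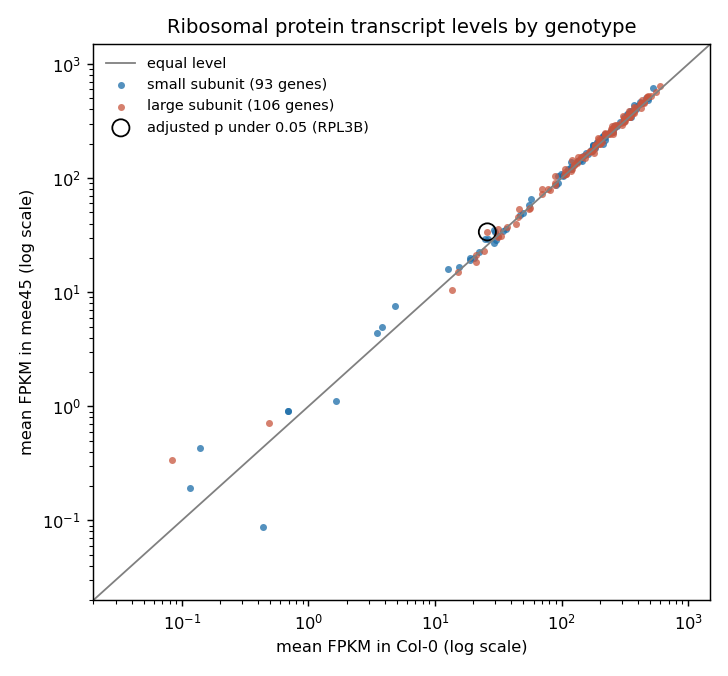
Mean FPKM in mee45 (vertical axis, log scale) against mean FPKM in Col-0 (horizontal axis, log scale) for each member above 0 in both genotypes, coloured by subunit. Most points lie near the line of equal level, but some barely detected members lie far from it, such as RPL8B (0.337 FPKM in mee45, 0.083 in Col-0). The circled gene, ARP2 (RPL3B in the legend), is the only member with an adjusted p under 0.05.

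Whether these genes differed in mee45 siliques was read from the authors' deposited adjusted p, under 0.05. By it 1 of the 201 members rose (0.498%) and 0 fell. Of all genes tested 15.8% passed, with 6.67% higher and 9.15% lower in mee45. No small-subunit gene of 93 passed, and 1 of 108 large-subunit genes did. At an unadjusted p under 0.05 in the same table, 7 members were higher and 1 was lower, against 24.8% of all genes in either direction. The 3 such genes of the small subunit were all higher, and the large subunit had 4 higher and 1 lower. Among genes with a mean count of at least 1000 in both genotypes, 0 of 152 members passed and 3 had an unadjusted p under 0.05, all higher. Of all 4651 such genes 16.0% passed and 24.3% had an unadjusted p under 0.05. At an adjusted p under 0.01 no member passed, against 10.7% of all genes, and none passed with a further minimum of 1.5-fold, against 10.9%. The smallest change that passed among those 4651 genes was 0.30 in size on the log2 scale, and the largest among the 152 members was 0.24. These shares are set side by side with no test, since genes are not replicates. In bulk siliques, more or fewer cells of a type and more or less RNA per cell cannot be told apart.

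The gene that rose encodes the less abundant form of L3, a large-subunit protein that in yeast reaches toward the peptidyl transferase centre. ARP2, at chr1:22720560-22723152, averaged 941.7 counts and 33.8 FPKM in mee45, against 709.7 counts and 25.9 FPKM in Col-0. Its log2 fold change was 0.38 (authors' adjusted p = 0.0105). From summed counts, 2825 in mee45 and 2129 in Col-0, ARP2 in mee45 reached 130.8% of its Col-0 value after scaling to equal totals, with an exact 95% counting interval of 123.6% to 138.5%. Such intervals cover counting error in counts summed over libraries and hold no spread between libraries. PCR copies cannot be told from separate molecules here, so the counting error itself may be larger. ARP1, at chr1:16266553-16268945, was far more abundant at 520.8 FPKM in mee45 and 482.2 in Col-0, and did not pass (log2 0.11, adjusted p = 0.650). ARP2 held 6.09% of the summed FPKM of the L3 pair in mee45 and 5.10% in Col-0. The coding sequences of the pair are 79.5% identical.

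The other members with an unadjusted p under 0.05 did not pass after adjustment. RPS8A, whose levels are given above, had a log2 fold change of 0.23 (authors' adjusted p = 0.187). RPSAB (AT3G04770), a small-subunit protein related to the animal laminin receptor, stood at 15.9 FPKM in mee45 and 12.7 in Col-0 (log2 0.33, adjusted p = 0.144). RPS15C (AT5G09500) had a mean of 100.7 counts in mee45 and 64.3 in Col-0 (log2 0.64, adjusted p = 0.0763). These were the 3 of the small subunit.

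In the large subunit RPL26B (AT5G67510) stood at 142.8 FPKM in mee45 and 120.9 in Col-0 (log2 0.24, adjusted p = 0.165). RPL40B (AT2G36170), a second fusion of ubiquitin to L40, stood at 104.4 FPKM in mee45 and 88.9 in Col-0 (log2 0.23, adjusted p = 0.166). RPL8B (AT3G51190) was barely detected, with 16 summed counts in mee45 and 4 in Col-0 (adjusted p = 0.154). The mee45 level of RPL8B was 394% of Col-0, with an exact counting interval of 127% to 1621%. The L18a-like gene AT5G57060 had the lower value in mee45, at 10.5 FPKM against 13.7 in Col-0 (log2 -0.38, adjusted p = 0.132). Its deposited GO annotation does not name the cytosolic ribosome. In coding sequence it is 47.1% identical to AT3G14600 and 30.9% to AT1G29970, the other genes of its family.

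Small differences of one sign were frequent. Among members with a mean count of at least 10 in both genotypes, the median log2 fold change was 0.07 (n = 195), and 152 of them lay above 0. Over all 20267 such genes the median was 0.01, and 51.0% lay above 0. Within 0.2 of equality on the log2 scale were 88.2% of members and 54.9% of all genes. With a mean count of at least 1000, the members ranged from -0.11 to 0.24 (n = 152). Of those, 82.9% lay above 0 and 94.1% within 0.2, against 54.1% and 70.5% of all such genes.

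Both subunits showed this pattern. The small-subunit median was 0.07 (n = 90, 74 above 0) and the large-subunit median 0.05 (n = 105, 78 above 0). With genotype means and members that are not replicates, the difference between subunits could not be tested. Members with a mean count over 6000 had a median of 0.10 (n = 38) and those from 3000 to 6000 a median of 0.07 (n = 58). The median was 0.05 from 1000 to 3000 (n = 56) and 0.01 from 100 to 1000 (n = 36). From 100 counts upward the medians thus rose with the count. The 7 members from 10 to 100 had a median of 0.40, with 6 above 0, so the medians did not fall steadily with the count. That median is the value listed for both AT1G58684 and AT1G58983, S2 copies whose split of reads is uncertain. The 7 also include AT2G07715, which the reference places in the mitochondrion. Across the 195 members, the log2 fold change and the log2 mean FPKM had a Pearson r of -0.13 and a Spearman rho of 0.13. These values describe genes of the same libraries and differ in sign.

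**Figure D3:**
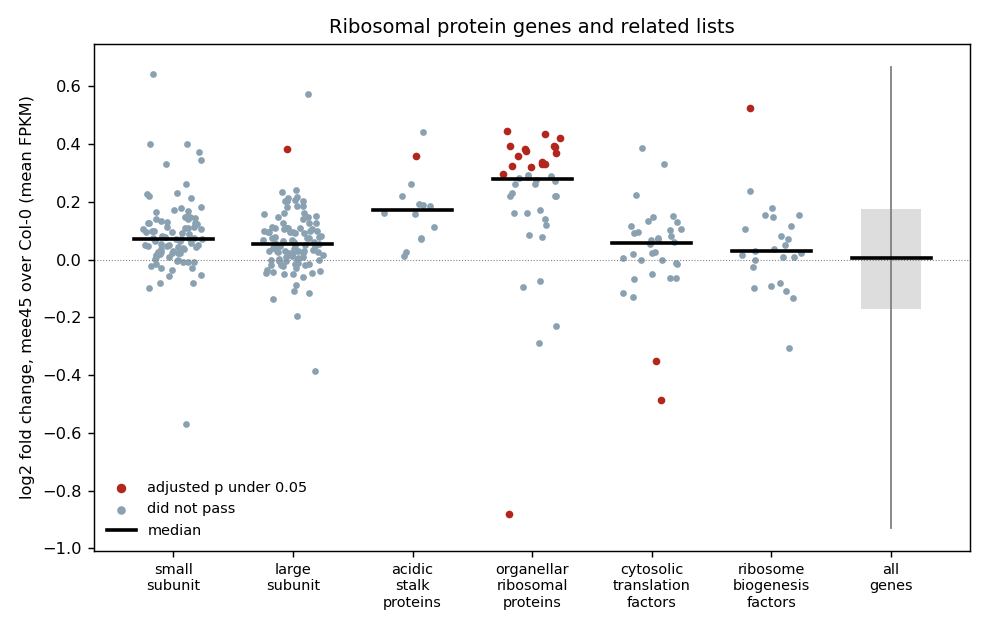
Log2 fold change of mean FPKM, mee45 over Col-0 (vertical axis), for small- and large-subunit genes, related gene lists and all genes (box, middle 50%; line, 5th to 95th percentile), for genes with a mean count of at least 10 in both genotypes. Black bars are medians and red points passed the authors' test; the subunit medians are 0.07 and 0.05, and that of organellar ribosomal proteins is 0.28.

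As a share of all counts, the set took 3.46% in mee45 and 3.26% in Col-0. The exact 95% binomial intervals were 3.45% to 3.46% in mee45 and 3.26% to 3.27% in Col-0. They cover counting error in counts summed over libraries and hold no spread between libraries. Whether the shares differ beyond that spread was not tested. Small-subunit genes took 1.44% in mee45 and 1.35% in Col-0, a ratio of 1.07. Large-subunit genes took 2.02% in mee45 and 1.91% in Col-0, a ratio of 1.06.

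Seed markers also differed between the genotypes. All 3 embryo markers fell, summing to 52.0 FPKM in mee45 and 89.9 FPKM in Col-0; FUS3, a regulator of seed maturation, had a log2 fold change of -1.88. Of 3 endosperm markers 2 rose, and the list summed to 9.91 FPKM in mee45 and 5.17 FPKM in Col-0. Of 3 seed coat markers 1 rose and 1 fell (713 FPKM in mee45, 766 FPKM in Col-0), and of 4 silique wall markers 2 rose and 1 fell (330 FPKM in mee45, 324 FPKM in Col-0). Cruciferins and seed storage albumins, 9 genes for reserve proteins, took 0.00071% of counts in mee45 and 0.271% in Col-0. Without these 9 genes in the total, the ribosomal share was 3.46% in mee45 and 3.27% in Col-0, a ratio of 1.06. Whether the siliques of the genotypes held seeds of the same stage was not tested, nor was the part of the marker differences in the ribosomal values, that of ARP2 included.

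Since near-identical paralogs can share reads, counts were also summed over each family. The 198 members other than the 3 mitochondrial ones formed 72 families, 31 of the small and 41 of the large subunit, and 65 of the 72 totals were above 0 on the log2 scale, mee45 over Col-0 at equal total counts. The median was 0.09 over small-subunit families and 0.06 over large-subunit families. Family totals ranged from -0.06 for L39 to 0.23 for S8. Because no p-value exists for a family total, these are descriptions. Families hold only genes matched by the description rule, so paralogs described in other words would be missing from the sums and shares. Outside the rule lay 118 tested genes whose GO annotation names the cytosolic ribosome, a term that also holds other proteins.

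S8 was carried almost wholly by RPS8A, with 99.3% of the family's FPKM in both genotypes. In L15 both paralogs had the same difference: RPL15A (AT4G16720) stood at 349 FPKM in mee45 and 303 in Col-0, and RPL15B (AT4G17390) at 288 FPKM in mee45 and 250 in Col-0, each with a log2 fold change of 0.20 (adjusted p = 0.266 for RPL15A and 0.248 for RPL15B). L39 summed to 172 FPKM in mee45 and 181 FPKM in Col-0, and its 3 paralogs ranged from -0.14 to -0.05. The small-subunit families below 0 were S29 at -0.03 and S18 at -0.01. The large-subunit families below 0 were L39, L36, L31, L29 and L11. Over the matched genes, L21 had the highest family sum, at 1203 FPKM in mee45 and 1087 FPKM in Col-0. L41, with only 1 matched gene, had the lowest, at 121 FPKM in each genotype.

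**Figure D4:**
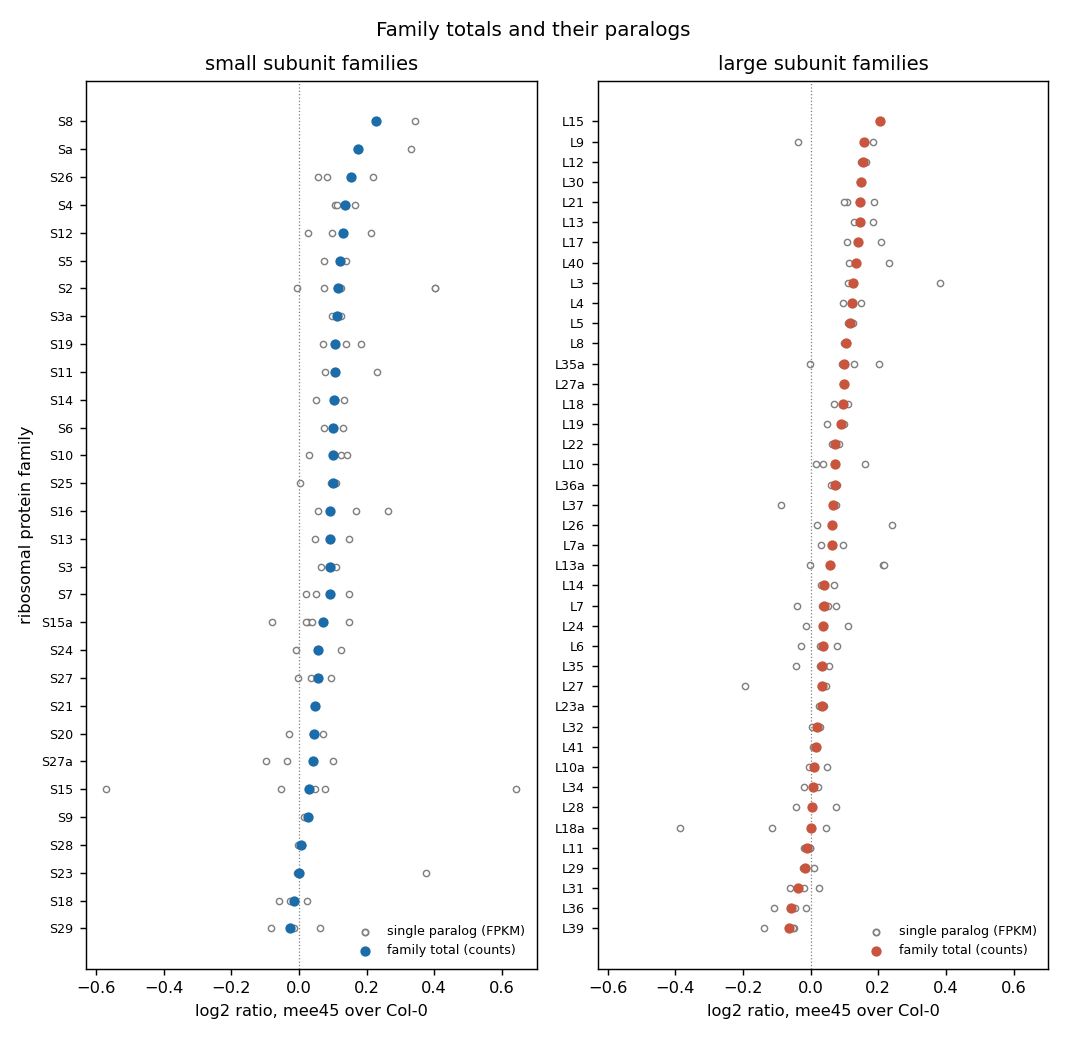
Log2 ratio, mee45 over Col-0 (horizontal axis), of each family's summed counts at equal totals (filled points) and of its paralogs' mean FPKM (open points, mean count of at least 10 in both genotypes), with small-subunit families on the left and large-subunit families on the right. Family totals lie between -0.06 and 0.23, the paralogs of S15 spread most, and 1 small-subunit family is not drawn.

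The balance between paralogs was nearly the same in both genotypes. In the 69 families with more than 1 member, the share of their family's FPKM differed by less than 1 percentage point for 146 of 195 paralogs, and by more than 2 points for 16. The most abundant paralog was the same gene in 68 of 69 families. The exception was S12, where RPS12C (AT2G32060) held 44.0% in mee45 and 47.0% in Col-0, and the share of RPS12A (AT1G15930) was 3.11 percentage points higher in mee45 than its 46.9% in Col-0. RPS12A stood at 138 FPKM in mee45 and 119 in Col-0 (log2 0.21, authors' adjusted p = 0.246).

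The widest spread was in S15, whose 6 paralogs include low members. Among the paralogs with a mean count of at least 10 it reached from -0.57 for RPS15F (AT5G63070; 33 summed counts in mee45 and 48 in Col-0, adjusted p = 0.557) to 0.64 for RPS15C. The dominant S15 gene, RPS15A (AT1G04270), stood at 402 FPKM in mee45 and 389 in Col-0. A member's nearest paralog was 85.9% identical in coding sequence at the median over 194 members, and 19 members had one at least 95% identical. The 3 S2 genes listed as RPS2B are identical in coding sequence. A pair of them, AT1G58684 and AT1G58983, are listed with the same value, 21.0 mean counts in mee45 and 16.1 in Col-0, so the split of reads among these copies is uncertain.

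Members named after mutants in the reference annotation are known for altered leaf, fruit or embryo form. There were 13, and none passed the authors' test (smallest adjusted p = 0.443). Of all genes tested 15.8% passed, and 13 genes are few to set beside that share. Their log2 fold changes ranged from -0.01 to 0.16, with 11 above 0. The PIGGYBACK genes were found through leaf polarity mutants. PGY1 (L10a, AT2G27530) stood at 317.6 FPKM in mee45 and 318.4 in Col-0, PGY2 (L9, AT1G33140) at 420 FPKM in mee45 and 377 in Col-0, and PGY3 (L5, AT3G25520) at 446 FPKM in mee45 and 413 in Col-0. Of the POINTED FIRST LEAF genes, PFL1 (S18, AT1G22780) stood at 185 FPKM in mee45 and 182 in Col-0 (log2 0.02). PFL2 (S13, AT4G00100) stood at 245 FPKM in mee45 and 221 in Col-0 (log2 0.15).

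STV1 (L24, AT3G53020), known for gynoecium patterning, stood at 342 FPKM in mee45 and 345 in Col-0. SAC52 (L10, AT1G14320), found as a suppressor of a stem-growth mutant, stood at 462 FPKM in mee45 and 451 in Col-0. AML1 (S5, AT3G11940), whose loss arrests embryos, stood at 385 FPKM in mee45 and 349 in Col-0. EMB2296 (L8, AT2G18020) stood at 459 FPKM in mee45 and 426 in Col-0, and EMB3010 (S6, AT5G10360) at 374 FPKM in mee45 and 356 in Col-0. The remaining embryo-defective loci, RPL19A, ARP1 and UBQ1, are described above.

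The largest other differences among members with a mean count of at least 100 in the higher genotype did not pass either. Higher values in mee45 in the small subunit included RPS16B (AT3G04230; log2 0.26, authors' adjusted p = 0.210) and RPS11B (AT4G30800; 0.23, adjusted p = 0.249). In the large subunit they included RPL13AC (AT4G13170) and RPL13AD (AT5G48760), both at 0.22. The lowest values in the small subunit ran from -0.10 for RPS27AA (AT1G23410) through RPS29A (AT3G44010) and RPS15AE (AT4G29430), both at -0.08, and the S18 gene AT1G34030 at -0.06 to -0.05 for RPS15D (AT5G09510). In the large subunit AT5G57060 was followed by RPL27A (AT2G32220) at -0.20, RPL39B (AT3G02190) at -0.14, RPL18AA (AT1G29970) at -0.12 and RPL36C (AT5G02450) at -0.11.

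Members were also grouped by promoter motif. The median log2 fold change was 0.09 for the 26 members with both motifs, 0.06 for the 102 with site II alone, 0.07 for the 10 with the telo box alone and 0.05 for the 56 with neither. These medians are a description and were not tested against each other.

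Genes that work beside the cytosolic ribosome are given for comparison. Of all genes tested 6.67% were higher and 9.15% lower in mee45, and the counts in these short lists were not tested against those shares. The acidic stalk proteins, which bind elongation factors to the large subunit, had 1 of 14 that rose and 0 that fell, with a log2 median of 0.17 and all 14 above 0. The one that rose was RPP3A (AT4G25890), at 55.6 FPKM in mee45 and 43.4 FPKM in Col-0 (log2 0.36, authors' adjusted p = 0.0300). Among 25 ribosome biogenesis factors the log2 median was 0.03, 0 fell, and the 1 that rose was MDN1 (AT1G67120), an ATPase that in yeast strips assembly factors from the large-subunit precursor, at 3.32 FPKM in mee45 and 2.31 FPKM in Col-0 (log2 0.53, adjusted p = 0.000136).

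Of 34 genes matched by the words for cytosolic translation factors, 1 (AT5G46030) is described as a transcription elongation factor. Among the 33 others 0 rose and 2 fell, with a log2 median of 0.06, while 9.15% of all genes tested fell. Those that fell were an eIF5A gene (AT1G69410), whose product helps the ribosome through difficult peptide bonds, and AT2G27700, described as eIF5B-like. Their log2 fold changes were -0.35 (authors' adjusted p = 0.0203) for AT1G69410 and -0.49 (adjusted p = 0.0146) for AT2G27700. Another eIF5A gene, AT1G26630, was more abundant and did not pass, at 784 FPKM in mee45 and 708 in Col-0 (log2 0.15, adjusted p = 0.483). Of 5 TOR signalling genes 1 fell, S6K2 (AT3G08720, listed as ATPK2). This member of the family of kinases that phosphorylate ribosomal protein S6 stood at 14.1 FPKM in mee45 and 34.3 FPKM in Col-0 (log2 -1.29, adjusted p = 0.000846). S6K1 (AT3G08730), of the same family, did not pass, at 45.5 FPKM in mee45 and 45.1 FPKM in Col-0 (log2 0.01). Of the genes for S6 itself, RPS6A (AT4G31700) stood at 432 FPKM in mee45 and 395 FPKM in Col-0 (log2 0.13, adjusted p = 0.574), and EMB3010 is given above.

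The organellar ribosomal proteins, most of them nuclear-encoded parts of the plastid ribosome, differed more. Of 42 tested 16 rose and 1 fell, against 6.67% and 9.15% of all genes tested. The median log2 fold change was 0.28 over the 40 with a mean count of at least 10 in both genotypes. RPL5 (AT4G01310) stood at 149 FPKM in mee45 and 110 FPKM in Col-0 (log2 0.44, authors' adjusted p = 0.00146). RPL34 (AT1G29070) stood at 94.7 FPKM in mee45 and 69.5 FPKM in Col-0 (log2 0.45, adjusted p = 0.00280). RPL13 (AT1G78630) and RPL21 (AT1G35680) each rose by 0.39 on the log2 scale. The one that fell, AT5G16200, had a log2 fold change of -0.88 (adjusted p = 0.00886). Entries of the list described as mitochondrial, AT2G21290 at -0.23 and AT1G16870 at 0.08, did not pass. With a mean count of at least 1000 in both genotypes, 16 of 31 organellar genes rose and 0 fell (median 0.30), beside 0 of the 152 cytosolic members at that depth, and the difference between the lists was not tested.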

How the data were processed

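PolyA RNA of 3 mee45 and 3 Col-0 silique samples was sequenced as paired ends after Trizol extraction, per the labels' protocols. Tools listed in the submitters' processing notes are edgeR, RSEM, Cufflinks, TopHat2 2.0.3.12, Bowtie2 2.2.8 and fastp 0.18.0, with the build TAIR10 and no role for any of them. Estimated counts were deposited as means per genotype: 95.2% of values in each genotype are whole multiples of one library's share within 0.01 counts. FPKM was deposited by the authors in the same form. The authors' deposited table gives log2 fold changes, which equal the log2 ratio of mean FPKM with 0 set to 0.001. Its p-values are the authors' own, and the adjusted ones match Benjamini-Hochberg values computed over the 25434 genes with a count above 0. Genes with 0 in both genotypes (6174) were not tested. There were 0 columns of other samples.

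No new test was made, because genotype means allow no count model. Calls are the authors' adjusted p under 0.05. Medians use log2 of mean FPKM, mee45 over Col-0, for mean counts of at least 10 in both genotypes. Summed counts are the mean times the number of libraries. Families take the letter and number of the description, with S5A read as S5 and S15ab as S15a. AT2G42740, described as L16A, was placed in L11 by its symbol, RPL11A. The 3 members that the reference annotation places in the mitochondrion have no family, a choice made after values were seen. No source used here says whether counting used strand.

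The members, lists and named genes were chosen with earlier results of these data known. Named genes are called members, the 5 highest and the 5 largest changes in each direction per subunit (mean count at least 100), paralogs of called members, the 3 lowest members, up to 5 called genes of each companion list by smallest p, and MEE45; of these, 1 item is not reported here. Markers were summarised by list. Members with an unadjusted p under 0.05, those named after mutants and those singled out in the family and paralog results were chosen after values were seen. The reference, RefSeq TAIR10.1, gave coordinates and sequences; 200 of 201 members matched by locus tag. Upstream windows of 250 bases were searched on both strands, neighbouring genes included. The fold-change step was checked on simulated data. Python 3.11.15, pandas 2.3.3, numpy 2.4.6, scipy 1.17.1, biopython 1.88 and matplotlib 3.10.9 were used.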

Additional observations from a re-analysis of the deposited data

How the results depend on the processing

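No paired analysis was possible because the deposited columns are means per genotype and carry no replicate numbers. For the same reason, leaving out single libraries could not be run. Of the count of members called higher, which is 1, the value was 0 at an adjusted p under 0.01 and 0 with a 1.5-fold minimum. A mean count of at least 1000 in both genotypes, a setting added after seeing the data, also gave 0. That minimum leaves out ARP2, at 941.7 counts in mee45 and 709.7 in Col-0, so its 0 says nothing on the call. These values were the same for all members and for the large subunit. At an unadjusted p under 0.05 members called higher numbered 7 for all, 3 for the small and 4 for the large subunit. Members called lower numbered 1 for all and 1 for the large subunit. With membership taken from the GO component of the cytosolic ribosome (307 genes, chosen after seeing the data), 18 were higher and 5 lower. Of all genes tested 6.67% were higher and 9.15% lower. Of the 103 genes that GO places in the small subunit 1 was higher, and of the 141 in the large subunit 3 were higher and 4 lower. The remaining calls fell on genes for which that annotation names neither subunit. That term also holds plastid ribosomal and other proteins. The share of summed FPKM was 5.765% in mee45 and 5.449% in Col-0 for all members, 2.383% in mee45 and 2.238% in Col-0 for the small subunit, and 3.383% in mee45 and 3.211% in Col-0 for the large subunit. Without 56 genes described by storage protein words, most of them lipid-transfer-like, the share of counts was 3.467% in mee45 and 3.278% in Col-0, 1.443% in mee45 and 1.356% in Col-0 for the small subunit, and 2.024% in mee45 and 1.922% in Col-0 for the large subunit. Without the 9 cruciferin and seed storage albumin genes, a setting added after seeing the data, the Col-0 shares were 3.272%, 1.354% and 1.919% for all, small-subunit and large-subunit members. Under the scalings, pseudocounts, filters, family totals and member rules tried, the median log2 fold change lay between 0.06 and 0.07 for all members, between 0.07 and 0.09 for the small subunit and between 0.05 and 0.07 for the large subunit.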
